A study of Arabidopsis thaliana with 12 samples.

Results

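The comparison described here is between Arabidopsis thaliana seedlings that carried the 35S:WIN1SRDX construct and wild-type seedlings. Its members are the 8 arrays of these groups, 4 WIN1SRDX and 4 wild type, out of 12 arrays in the study. Of the 25665 genes (loci) that the probes named, 20268 were bright enough to be tested. The WIN1SRDX seedlings were Columbia-0 plants transformed with WIN1 fused to the SRDX peptide, transcribed from the constitutive 35S promoter and ended by the NOS terminator. The wild-type seedlings were untransformed Columbia-0. The remaining 4 arrays held seedlings with the same kind of construct made with MYB106 (MYB106SRDX). All groups were 3 weeks old, grown on Murashige and Skoog agar and harvested as whole seedlings, several from a plate being pooled for an RNA. The labels give no line number, so whether the WIN1SRDX arrays come from 1 transformed line is not known, and no separate cultures are named. The p-values therefore refer to the variation among these pools of seedlings, which may be technical. In pooled whole seedlings, fewer cells of a type and less RNA per cell cannot be told apart.

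WIN1, listed as SHN1 in RefSeq, is a transcription factor of the AP2/ERF family that activates genes for cutin and wax, the lipids of the cuticle covering the shoot epidermis. SRDX is a short repression domain of the type found in SUPERMAN (SUP), and when it is fused to an activator the chimaera represses the genes that the activator would otherwise switch on. The cuticle limits water loss, keeps young organs from fusing and is a barrier to microbes.

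Levels are given as log2 of the processed spot intensity over that array's 75th percentile, so that 0 is the level of a bright probe and each unit is a doubling. Differences are WIN1SRDX minus wild type, with the standard error (SE) of a limma fit and a p-value adjusted by the Benjamini-Hochberg procedure over all genes tested. A gene is said to have risen or fallen where that adjusted p was under 0.05.

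Between 59.3% and 64.2% of the probes were well above background on each array. Wild-type arrays correlated with each other at r = 0.989 to 0.994, and WIN1SRDX arrays at 0.926 to 0.972. WIN1SRDX replicate 2 stood apart: its correlations with the other WIN1SRDX arrays were 0.926 to 0.951. On that array 193 genes lay at least 8-fold below the lowest of the other 3 WIN1SRDX arrays, and 167 of them had their spot in rows 1 to 100 of the 532 rows, a strip that holds 18.2% of the genes tested. The corresponding counts were 22, 4 and 2 on WIN1SRDX replicates 1, 3 and 4, and 0 to 2 on the wild-type arrays. Of the MYB106SRDX arrays, which enter the same fit, replicate 2 had 139 such genes, 32 of them in the strip, and the other 3 had 1 to 19. With the spots of that strip left out of the replicate, a choice made after seeing the data, 6622 genes passed the test, 6451 of them shared with the 6606 genes that passed with all spots.

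**Figure D1:**
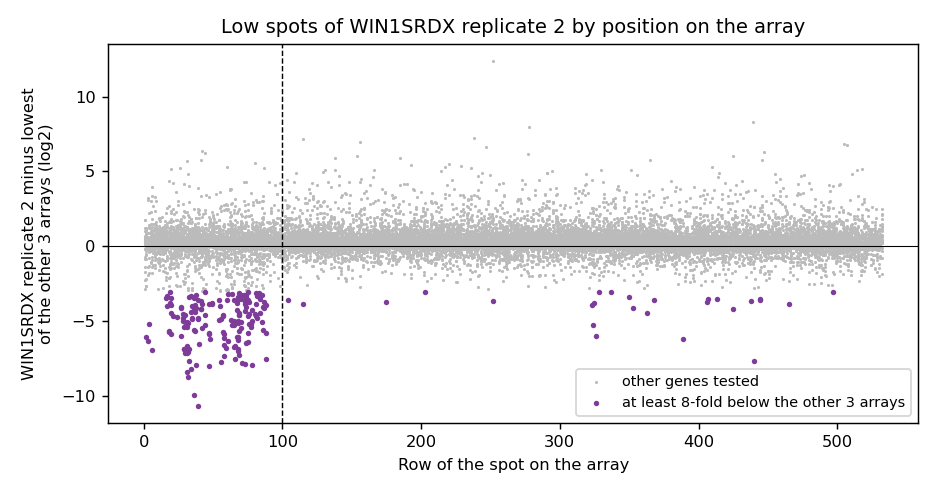
Each point is a gene tested, placed by the row of its spot on the array (x axis) and by the log2 difference between WIN1SRDX replicate 2 and the lowest of the other 3 WIN1SRDX arrays (y axis). Of the 193 genes that lay at least 8-fold below the others, 167 sit left of the dashed line at row 100.

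The targeted gene was read first. SHN1 stood at 5.55, 5.58, 5.39 and 5.86 on the WIN1SRDX arrays, against -9.13, -6.77, -8.25 and -6.33 on the wild-type arrays. All WIN1SRDX arrays were high and the groups did not overlap, with a difference of 13.22 ± 1.14 (SE, adjusted p = 4.19e-05). It was well above background on 2 of the 4 wild-type arrays. SUP, a floral gene that supplies the repression domain, was well above background on the 4 WIN1SRDX arrays but on none of the wild-type ones, which gives a rise of at least 9989-fold (adjusted p = 8.81e-09). Where the probes lie in the transcripts is not known here, so signal from the construct and from the plant's own gene were not separated. SHN2, a close relative of WIN1, differed by -1.14 ± 1.18 (adjusted p = 0.484) with overlapping groups.

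Across the genome, 6606 of 20268 genes (32.6%) differed, of which 3528 (17.4% of all tested) were higher and 3078 (15.2%) lower in WIN1SRDX. Higher genes made up 53.4% of those that passed, and 66.5% with the authors' own scaled values. A share of 14.6% passed and differed by at least 2-fold. Differences of at least 4-fold were found in 611 genes that rose and 548 that fell, and of at least 16-fold in 130 and 90. In 8719 genes (43.0%) every WIN1SRDX array lay on 1 side of all wild-type arrays. In addition, 117 genes were well above background on all WIN1SRDX arrays and on no wild-type array, 112 of which passed the test, and 89 genes showed the reverse, of which 85 passed. The balance of directions differed with the level in wild type, a level that also enters the difference. Among the 5067 genes with the lowest wild-type levels 1145 rose and 586 fell, whereas among the 5067 with the highest levels 683 rose and 1047 fell. The 12 arrays lay on 3 slides, each holding all 3 groups. Of the genes that passed, 98.1% had the same sign within every slide. The same arrays gave the calls, so that this share was largely fixed by the selection. With slide as a block 5727 genes passed.

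**Figure D2:**
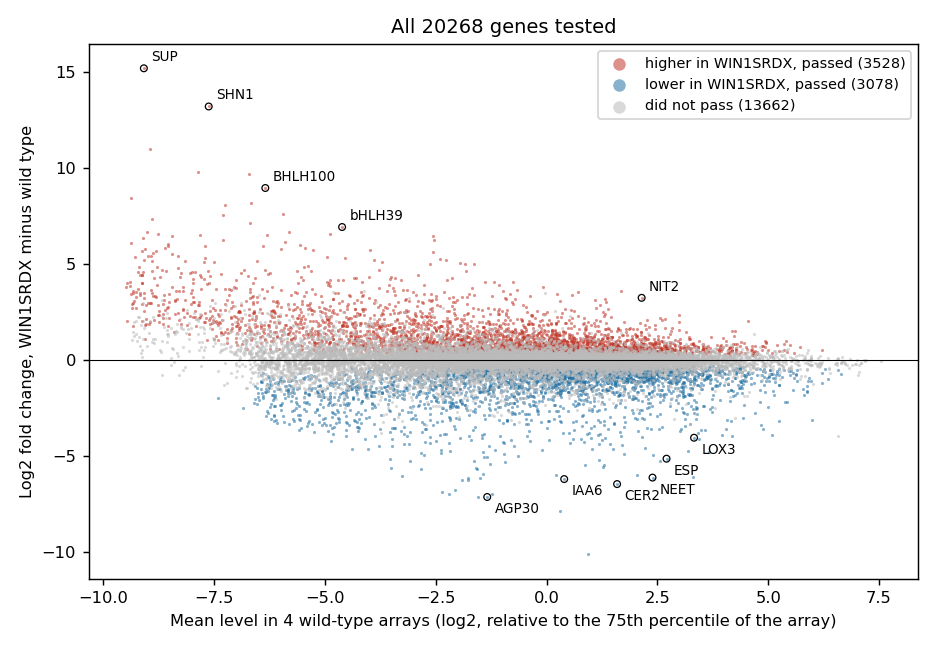
Each point is 1 of the 20268 genes tested, placed by its mean log2 level on the 4 wild-type arrays (x axis) and by its log2 fold change, WIN1SRDX minus wild type (y axis). Red marks the 3528 genes that rose and blue the 3078 that fell, with SHN1 and SUP at the top left.

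Regulators of the iron response were higher in WIN1SRDX. Iron is taken up by roots through a reductase and a transporter that are switched on by the bHLH factor FIT (listed as FRU) together with one of the subgroup Ib bHLH factors, and ferritins store it. Of 12 iron regulators tested, 8 rose and 0 fell, with a median difference of 2.29, against 0.00 over all genes tested. These 12 do not include FIT, which the RefSeq table lists under another symbol and which fell, as described after the other regulators. The subgroup Ib factor BHLH101 stood at 3.67, 3.40, 2.37 and 2.80 on the WIN1SRDX arrays, against -2.63, -1.97, -2.71 and -2.90 on the wild-type arrays. BHLH100, its relative, stood at 2.92, 2.59, 1.45 and 3.55 on the WIN1SRDX arrays, against -6.69, -4.32, -7.10 and -7.27 on the wild-type arrays. Both genes were high on every WIN1SRDX array, and rose by 5.62 ± 0.99 (SE, adjusted p = 0.00196) and 8.97 ± 1.59 (adjusted p = 0.00204). The other pair of the subgroup, bHLH39 and bHLH38, rose by 6.94 ± 1.73 (adjusted p = 0.0113) and 9.71 ± 1.88 (adjusted p = 0.00313). BHLH100 and bHLH38 were each well above background on 2 of the 4 wild-type arrays. PYE, a bHLH factor that acts in iron homeostasis, rose by 2.07 ± 0.20 and BTS, a ubiquitin ligase that restrains the response, rose by 2.54 ± 0.23 (adjusted p = 7.41e-05 and 5.61e-05). The estimate of spread is shared with the MYB106SRDX arrays. A fit of the 8 WIN1SRDX and wild-type arrays alone called 10 of the 12 higher and 0 lower. Over all genes tested that fit called 4367 higher and 3923 lower, against 3528 and 3078 as reported.

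FIT (FRU) ran the other way. It read -2.42, -3.24, -3.90 and -2.82 on the WIN1SRDX arrays, against -1.82, -1.44, -1.30 and -1.52 on the wild-type arrays. Every WIN1SRDX array was below every wild-type array, and the fall of 1.57 ± 0.41 passed (adjusted p = 0.0142). IRT1, the root iron transporter that FIT activates, stood at -4.88, -4.96, -6.33 and -4.73 on the WIN1SRDX arrays, against -2.80, -1.59, -2.16 and -2.21 on the wild-type arrays, and differed by -3.04 ± 0.70 (adjusted p = 0.00752). FRO2, the root ferric reductase, differed by -1.70 ± 0.57 (adjusted p = 0.0406) with overlapping groups. CYP82C4, a cytochrome P450 of the root iron response, was well above background on all wild-type arrays and on no WIN1SRDX array, and was at least 4.76-fold lower in WIN1SRDX (adjusted p = 0.0002). IRT2, a relative of IRT1 in the same root cells, rose by 2.61 ± 0.77 (adjusted p = 0.0246). FRU and its known targets IRT1, FRO2 and CYP82C4 were thus lower on average, and IRT2 higher, on arrays where the subgroup Ib factors were higher.

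Among 26 genes of iron transport and storage, 8 rose and 8 fell, with a median of 0.30. Several that rose move iron within the plant. OPT3, an iron transporter of the phloem, stood at 3.26, 3.54, 3.07 and 3.71 on the WIN1SRDX arrays, against 0.21, 0.60, 0.20 and 0.18 on the wild-type arrays. The groups did not overlap, and the rise was 3.1 ± 0.28 (adjusted p = 5.27e-05). FRD3, which exports citrate into the xylem, rose by 2.13 ± 0.24, NRAMP4, which releases iron from the vacuole, by 1.77 ± 0.24, and ZIF1, a vacuolar transporter, by 1.95 ± 0.33 (adjusted p = 0.000197, 0.000488 and 0.0015). NAS4, a nicotianamine synthase, stood at 0.06, 0.18, -0.15 and 0.55 on the WIN1SRDX arrays, against -3.1, -3.13, -3.02 and -3.12 on the wild-type arrays. These groups were far apart, yet the difference of 3.25 ± 1.15 missed the threshold (adjusted p = 0.0512) in the fit that pools the spread of all 12 arrays.

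Of the ferritins, FER1 stood at 0.77, -0.67, 0.66 and -0.44 on the WIN1SRDX arrays, against 3.75, 2.37, 3.1 and 3.28 on the wild-type arrays. All 4 WIN1SRDX arrays were low, and the fall of 3.05 ± 0.46 passed (adjusted p = 0.000917). FER4 fell by 3.19 ± 0.57 and FER3 by 2.27 ± 0.37 (adjusted p = 0.00218 and 0.00135), whereas FER2, the ferritin of seeds, differed by 0.01 ± 0.33 (adjusted p = 0.983). NEET, an iron-sulfur protein of organelles, stood at -4.66, -3.85, -3.47 and -2.96 on the WIN1SRDX arrays, against 2.71, 2.14 and 2.32 on the 3 wild-type arrays that measured it. It fell by 6.12 ± 1.17 (adjusted p = 0.00365). Among superoxide dismutases, the copper and zinc enzymes CSD1 and CSD2 rose by 2.02 ± 0.33 and 1.83 ± 0.35, and the iron enzyme FSD1 fell by 1.31 ± 0.42 (adjusted p = 0.00138, 0.00285 and 0.036).

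**Figure D3:**
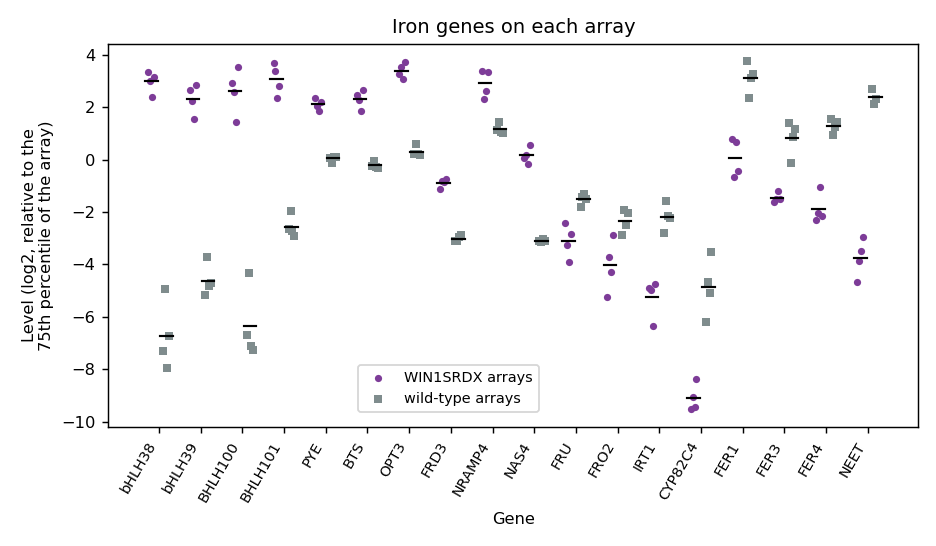
The log2 level, set to each array's 75th percentile (y axis), is drawn for 18 iron genes on the 4 WIN1SRDX arrays (circles) and the 4 wild-type arrays (squares), with bars at the group means. The subgroup Ib factors, PYE, BTS and OPT3 are high in WIN1SRDX, and FRU, IRT1, CYP82C4, the ferritins and NEET are low.

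Sulfur genes were higher. Of 9 sulfur genes tested 6 rose and 1 fell, with a median of 2.40. APR3, one of the enzymes that reduce activated sulfate, stood at 2.71, 2.98, 3.69 and 3.00 on the WIN1SRDX arrays, against 0.10, 0.75, 0.36 and 0.47 on the wild-type arrays. The groups did not overlap, and the rise was 2.67 ± 0.28 (adjusted p = 0.000123). Its relative APR1 rose by 2.40 ± 0.37, and LSU2 and ATSDI1, genes induced when sulfur is short, rose by 3.28 ± 0.48 and 3.23 ± 0.68 (adjusted p = 0.000998, 0.000703 and 0.00488).

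Several groups of genes for defence compounds and detoxification were also higher. Camalexin is the indole phytoalexin of Arabidopsis, and 5 of 7 genes of its synthesis rose and 0 fell (median 1.69). Without any one of WIN1SRDX replicates 1 and 3 or wild-type replicates 2, 3 and 4, the number that rose was 3. CYP71A12, which makes indole nitriles on the way to camalexin and related compounds, stood at 2.46, 0.65, 1.53 and 1.47 on the WIN1SRDX arrays, against -6.95, -7.03, -6.41 and -6.24 on the wild-type arrays. It rose by 8.19 ± 0.39 (adjusted p = 1.04e-06), and the groups did not overlap, with 3 of 4 wild-type arrays well above background. PAD3, which makes camalexin itself, rose by 4.19 ± 0.81 (adjusted p = 0.0032), and CYP71A13 rose at least 28.6-fold (adjusted p = 0.000803). CYP71A12 and CYP71A13 are near-identical copies, as are bHLH38 and bHLH39, and whether their probes tell the copies apart is not known here. FRK1, a receptor-like kinase gene induced by microbial patterns, rose by 3.73 ± 0.24 (adjusted p = 1.14e-05).

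Among enzyme families that conjugate or oxidise small molecules, 13 of 27 tau glutathione transferases rose and 1 fell (median 1.13), as did 20 and 1 of 53 UDP-glycosyltransferases (median 0.64) and 52 and 18 of 172 cytochromes P450 (median 0.44). GSTU10 stood at 1.09, -0.29, 0.61 and 0.82 on the WIN1SRDX arrays, against -2.80, -2.58, -2.38 and -2.62 on the wild-type arrays, a rise of 3.15 ± 0.32 (adjusted p = 0.000109) without overlap. UGT71B5 rose by 4.39 ± 0.34 (adjusted p = 2.5e-05). Of 8 methionine sulfoxide reductases of type B, which repair oxidised methionine, 5 rose and 1 fell. MSRB8 stood at 1.90, 1.17, 1.07 and 2.57 on the WIN1SRDX arrays, against -4.54, -6.35, -4.24 and -4.44 on the wild-type arrays, and rose by 6.57 ± 0.50 (adjusted p = 2.14e-05). MSRB6 moved the other way, by -4.41 ± 0.64 (adjusted p = 0.000725), so the family did not move as one.

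Beta-glucosidases, which release defence compounds from their sugar conjugates, rose in 13 of 28 cases and fell in 2 (median 0.61). BGLU22, an enzyme of the endoplasmic reticulum bodies, stood at 3.93, 3.05, 3.51 and 4.36 on the WIN1SRDX arrays, against -0.37, -0.29, 0.19 and 0.14 on the wild-type arrays, and rose by 3.8 ± 0.38 (adjusted p = 9.31e-05). The myrosinase-binding protein gene MBP1 rose by 3.43 ± 0.79 (adjusted p = 0.00755). ESP, which steers glucosinolate breakdown towards nitriles, stood at -5.95, 0.27, -1.66 and -2.40 on the WIN1SRDX arrays, against 2.45, 2.98, 2.83 and 2.56 on the wild-type arrays. It was low on every WIN1SRDX array with a wide spread among them, and fell by 5.14 ± 1.31 (adjusted p = 0.0125). Of 15 synthesis genes of aliphatic glucosinolates 0 rose and 1 fell. Of 9 synthesis genes of indole glucosinolates 0 passed the limma test, with 0 at an unadjusted p under 0.05 and 0 in the fit of the 8 arrays alone.

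Genes of protein folding in the endoplasmic reticulum rose in 9 of 11 cases and fell in 0 (median 0.87). BIP2, the reticulum's main chaperone, stood at 3.32, 3.11, 3.29 and 3.65 on the WIN1SRDX arrays, against 1.97, 1.86, 2.16 and 1.98 on the wild-type arrays. It rose by 1.35 ± 0.14 (adjusted p = 0.000126), and BIP3, the form induced by unfolded proteins, rose by 3.22 ± 0.44 (adjusted p = 0.000488). CNX1, a lectin chaperone, rose by 1.08 ± 0.13 (adjusted p = 0.000316).

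Jasmonate genes did not move as one. Jasmonate is made from linolenic acid through lipoxygenases, and of 13 synthesis genes 1 rose and 4 fell (median -0.78). LOX3 stood at -0.57, -1.22, -0.20 and -0.88 on the WIN1SRDX arrays, against 3.70, 2.98, 3.40 and 3.23 on the wild-type arrays. It was low on every WIN1SRDX array and fell by 4.04 ± 0.27 (adjusted p = 1.37e-05). LOX4 fell by 2.79 ± 0.35 and OPR3, the reductase of the later steps, by 1.81 ± 0.34, while AOC4, a cyclase of the same route, rose by 1.01 ± 0.14 (adjusted p = 0.000333, 0.00255 and 0.000513). Of 12 JAZ repressors 0 rose and 3 fell, or 5 fell in the fit of the 8 arrays alone. Of 10 output genes of jasmonate and ethylene defence 3 rose and 0 fell (median 1.1), or 5 rose without WIN1SRDX replicate 2. Among them THI2.1, a thionin, stood at -1.89, 1.54, 1.51 and 0.59 on the WIN1SRDX arrays, against -6.0, -3.55, -5.37 and -4.87 on the wild-type arrays, and rose by 5.38 ± 0.96 (adjusted p = 0.00207). PDF1.2, a defensin, rose by 3.45 ± 1.19 (adjusted p = 0.0467). Of 17 ethylene genes 0 rose and 7 fell (median -0.48), among them ACS8, an enzyme that makes the ethylene precursor, by -5.39 ± 0.73 (adjusted p = 0.000509), measured above background on 2 of the 4 WIN1SRDX arrays.

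Of 16 salicylic acid genes 3 rose and 3 fell (1 with the authors' values), shares close to those over all genes tested. PBS3, FMO1 and SARD1, which act in the synthesis or amplification of the signal, rose by 1.98 ± 0.23, 3.1 ± 0.70 and 1.43 ± 0.21 (adjusted p = 0.000242, 0.00681 and 0.000786). NPR1, a receptor of salicylic acid, differed by -0.49 ± 0.10 (adjusted p = 0.00506, or 0.0678 with the authors' values). PR1, the usual marker of the response, was not well above background on any of the 8 arrays. Of 8 touch and wounding genes 0 rose and 3 fell (median -0.69), TCH4, a wall enzyme induced by touch, by -1.55 ± 0.20 (adjusted p = 0.000332). SAG13, an oxidoreductase gene, rose by 5.74 ± 0.43, and TI1, a trypsin inhibitor, by 5.08 ± 0.36 (adjusted p = 1.96e-05 and 1.57e-05). Both were among the 12 largest rises of genes with a symbol, well above background on all 8 arrays and without overlap. NIT2, a nitrilase, stood at 5.05, 5.15, 5.64 and 5.72 on the WIN1SRDX arrays, against 2.05, 2.39, 2.29 and 1.85 on the wild-type arrays, a rise of 3.25 ± 0.20 (adjusted p = 1e-05). Every WIN1SRDX array was above every wild-type array. PR4, a chitin-binding protein, rose by 2.03 ± 0.20 (adjusted p = 0.000127) to 6.76, 6.49 and 6.48 on the 3 WIN1SRDX arrays that measured it, against 4.72, 4.27, 4.67 and 4.56 on the wild-type arrays.

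**Figure D4:**
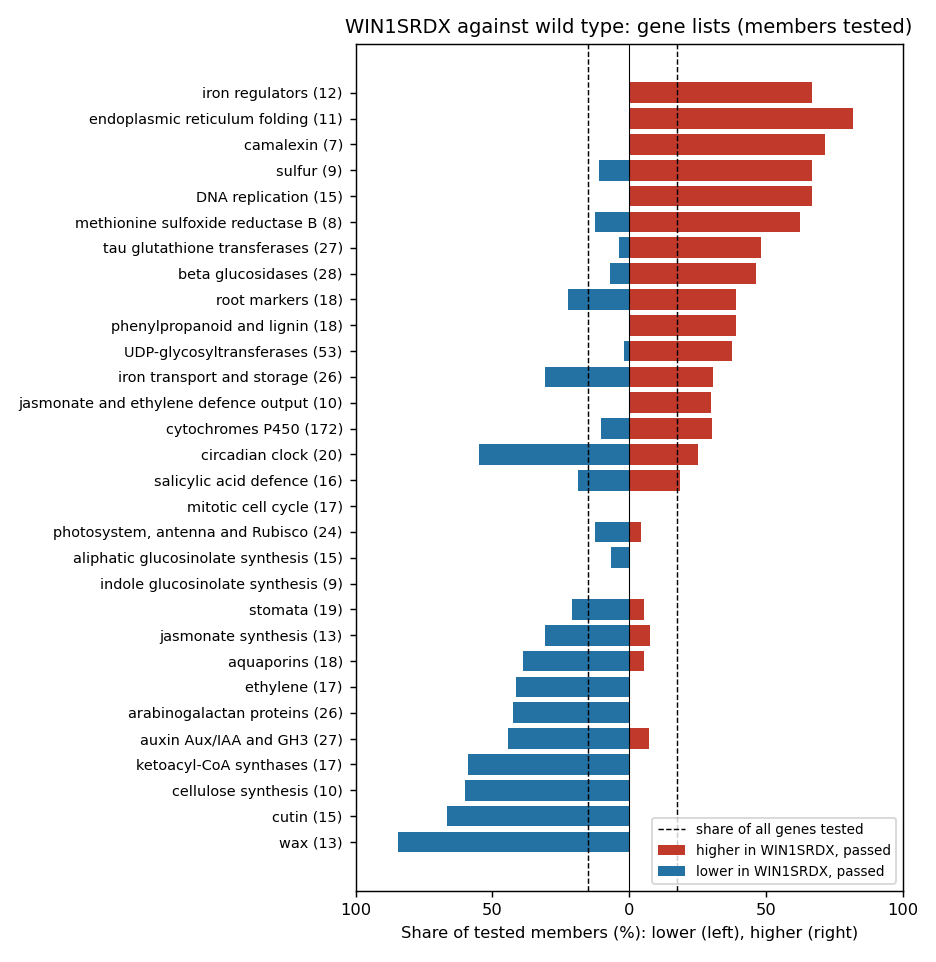
Bars give the share of the tested members of each gene list, in percent, that rose (right, red) and fell (left, blue) in WIN1SRDX, with the number tested in brackets. Dashed lines mark the shares over all genes tested, 17.4% higher and 15.2% lower.

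DNA replication genes rose by modest amounts. Of 15 tested 10 rose and 0 fell, with a median of 0.63. TSO2, a ribonucleotide reductase subunit, rose by 2.01 ± 0.33 (adjusted p = 0.00186). It stood at 4.0, 3.38 and 3.89 on WIN1SRDX replicates 1, 3 and 4 and had no value on replicate 2. MCM2, part of the replicative helicase, stood at -0.29, 0.48, 0.18 and 0.06 on the WIN1SRDX arrays, against -0.97, -0.75, -0.74 and -0.70 on the wild-type arrays. Each WIN1SRDX array was above each wild-type array, and the rise was 0.90 ± 0.16 (adjusted p = 0.00224). Of 17 mitotic genes 0 passed the limma test, with 1 at an unadjusted p under 0.05, and their median was 0.47. CYCB1;1, a mitotic cyclin, differed by 1.19 ± 0.44 (adjusted p = 0.0588). A fit of the 8 arrays alone called 5 of the 17 higher and 0 lower.

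Auxin response genes were lower. Of 27 Aux/IAA and GH3 genes, early targets of auxin, 2 rose and 12 fell (median -0.67), or 7 fell without wild-type replicate 2. IAA19, a repressor of auxin signalling, stood at -2.32, -2.31, -3.32 and -1.52 on the WIN1SRDX arrays, against 2.32, 2.08, 2.23 and 2.28 on the wild-type arrays. It fell by 4.59 ± 0.48 (adjusted p = 0.000126). IAA6, IAA29 and IAA5 fell by 6.20 ± 0.71, 5.19 ± 0.92 and 4.16 ± 0.74 (adjusted p = 0.000196, 0.00207 and 0.00211), IAA6 and IAA29 being above background on 3 of the 4 WIN1SRDX arrays. SAUR genes, another class of early auxin targets, gave 0 higher and 2 lower of 14. Their median was -1.28, and the differences ran from -2.2 to -0.24, so that all 14 lay below wild type. The 14.3% that passed was below the 32.6% over all genes tested. The fit of the 8 arrays alone called 8 of the SAUR genes lower, and 3923 of all genes lower against 3078 as reported.

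Several groups of wall genes were lower. Of 10 cellulose synthesis genes 0 rose and 6 fell (median -0.85), with CESA6, a subunit of the primary wall enzyme, differing by -1.15 ± 0.27 (adjusted p = 0.00792). Of 26 arabinogalactan proteins, glycoproteins of the cell surface, 0 rose and 11 fell (median -0.82). AGP30, one of them, was at least 54.9-fold lower in WIN1SRDX and was above background on no array of that group (adjusted p = 3.35e-05). Xyloglucan endotransglucosylases, which remodel the wall, were divided, 5 of 26 higher and 7 lower. The share that rose was near the 17.4% over all genes tested, and the share that fell was above the 15.2%. XTH19 stood at -5.44, -6.38, -5.53 and -6.01 on the WIN1SRDX arrays, against -1.82, -1.57, -1.28 and -2.13 on the wild-type arrays, a fall of 4.14 ± 0.29 (adjusted p = 1.57e-05). Of 18 aquaporins, water channels, 1 rose and 7 fell (median -0.50), the vacuolar channel TIP2;3 by -5.99 ± 0.74 (adjusted p = 0.000298), above background on 3 of the 4 WIN1SRDX arrays. On the other side, 7 of 18 phenylpropanoid and lignin genes rose and 0 fell (median 0.74). 4CL1, which activates coumarate, stood at 3.36, 3.29, 3.24 and 3.16 on the WIN1SRDX arrays, against 1.48, 1.11, 1.31 and 1.47 on the wild-type arrays, and rose by 1.92 ± 0.14 (adjusted p = 1.83e-05).

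Many circadian clock genes changed. Of 20 tested 5 rose and 11 fell (median -0.56), or 7 fell without wild-type replicate 2 or 4. The 5 that rose, CCA1, LHY, RVE8, RVE1 and CDF1, peak in the morning. CCA1 stood at 1.04, 1.75, 0.31 and 1.35 on the WIN1SRDX arrays, against -1.99, -1.76, -2.02 and -2.34 on the wild-type arrays. It rose by 3.14 ± 0.72 and its partner LHY by 3.53 ± 0.67 (adjusted p = 0.00721 and 0.00288), and the related RVE8 by 2.83 ± 0.54 (adjusted p = 0.00303). The evening genes TOC1, GI and PCL1 fell by 1.54 ± 0.17, 1.2 ± 0.20 and 1.32 ± 0.30 (adjusted p = 0.000165, 0.00153 and 0.00705). GRP7, a clock-controlled RNA-binding protein, fell by 2.38 ± 0.39 (adjusted p = 0.00137). The labels do not state the hour of harvest, and its part in these differences was not tested.

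Markers of organs and cell types were examined for the make-up of the seedlings. Of 24 photosystem, antenna and Rubisco genes 1 rose and 3 fell (median -0.20). The 16.7% that passed was below the 32.6% over all genes tested. The fit of the 8 arrays alone called 1 higher and 8 lower. Without WIN1SRDX replicate 1 or wild-type replicate 2, 1 fell. RBCS1B, a Rubisco small subunit, rose by 1.49 ± 0.24 and CAB1, an antenna protein, fell by 1.71 ± 0.48 (adjusted p = 0.00117 and 0.0197), though near-identical copies share such transcripts. Of 18 root markers 7 rose and 4 fell (median 0.65), or 1 to 2 fell without WIN1SRDX replicate 3 or any one wild-type array. EXPA7 and RSL4, an expansin and a transcription factor of root hairs, rose by 2.64 ± 0.40 and 1.69 ± 0.45 (adjusted p = 0.000836 and 0.0155). WOX5, a gene of the root stem cell niche, rose by 1.5 ± 0.28 (adjusted p = 0.0029), while CASP5, a protein of the Casparian strip, was at least 8.37-fold lower in WIN1SRDX (adjusted p = 6.34e-05). Mean deviations of the root markers from wild type were 1.18, -0.25, 0.23 and 0.7 on WIN1SRDX replicates 1 to 4. What the make-up of the seedlings contributes to the other groups of genes was not tested.

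Of 19 stomatal genes 1 rose and 4 fell (median -1.49). The number that fell was 7 in the fit of the 8 arrays alone, 1 without WIN1SRDX replicate 1, wild-type replicate 1 or wild-type replicate 2, and 2 without wild-type replicate 3. Of 17 trichome genes 1 rose and 1 fell, or 4 fell in the fit of the 8 arrays alone. As reported, 26.3% of the stomatal and 11.8% of the trichome genes passed, against 32.6% over all genes tested. TMM, a receptor-like protein that spaces stomata, stood at -4.88, -1.34, -1.66 and -2.41 on the WIN1SRDX arrays, against -0.02, 0.46, -0.07 and -0.14 on the wild-type arrays. It fell by 2.63 ± 0.81 (adjusted p = 0.0293), with replicate 1 the lowest. Of 5 flower markers 0 passed the limma test, with 1 at an unadjusted p under 0.05 and 1 in the fit of the 8 arrays alone. Their mean deviation from wild type was -0.47, 4.35, 3.84 and -0.64 on WIN1SRDX replicates 1 to 4, against -1.47, 0.39, -0.54 and 1.62 on the wild-type arrays, so that WIN1SRDX replicates 2 and 3 were high. Only 2 of these 5 markers were well above background on all 8 arrays, so the means include values of dim spots. None of 7 seed storage genes was bright enough to be tested.

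Cuticle genes were lower on average on all 4 WIN1SRDX arrays, by unequal amounts. The lists are of wax and cutin genes, and which members WIN1 acts on directly was not tested. Of 13 wax genes 0 rose and 11 fell (7 without WIN1SRDX replicate 1 or 4, or without any one wild-type array), and of 15 cutin genes 0 rose and 10 fell. The mean deviation of the wax genes from wild type was -4.21, -1.78, -2.53 and -3.13 on WIN1SRDX replicates 1 to 4, and that of the cutin genes was -3.59, -1.19, -2.23 and -2.61. Replicate 1 thus had the strongest fall and replicate 2 the weakest in both lists. The stomatal genes gave the same order, at -2.65, -0.15, -0.82 and -1.13. The wax enzyme CER1 stood at -5.31, 0.59, -0.64 and -1.17 on the WIN1SRDX arrays, against 1.47, 2.81, 1.78 and 2.18 on the wild-type arrays, and the fall of 3.69 ± 1.27 only just passed (adjusted p = 0.0459). The cutin acyltransferase GPAT6 was more even: it stood at -3.77, -3.43, -3.88 and -3.01 on the WIN1SRDX arrays, against -1.14, -1.12, -1.03 and -1.05 on the wild-type arrays (difference -2.44 ± 0.37, adjusted p = 0.000958). MYB16, a MYB factor of the epidermis that regulates cuticle genes, fell by 3.23 ± 1.04 (adjusted p = 0.0354).

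**Figure D5:**
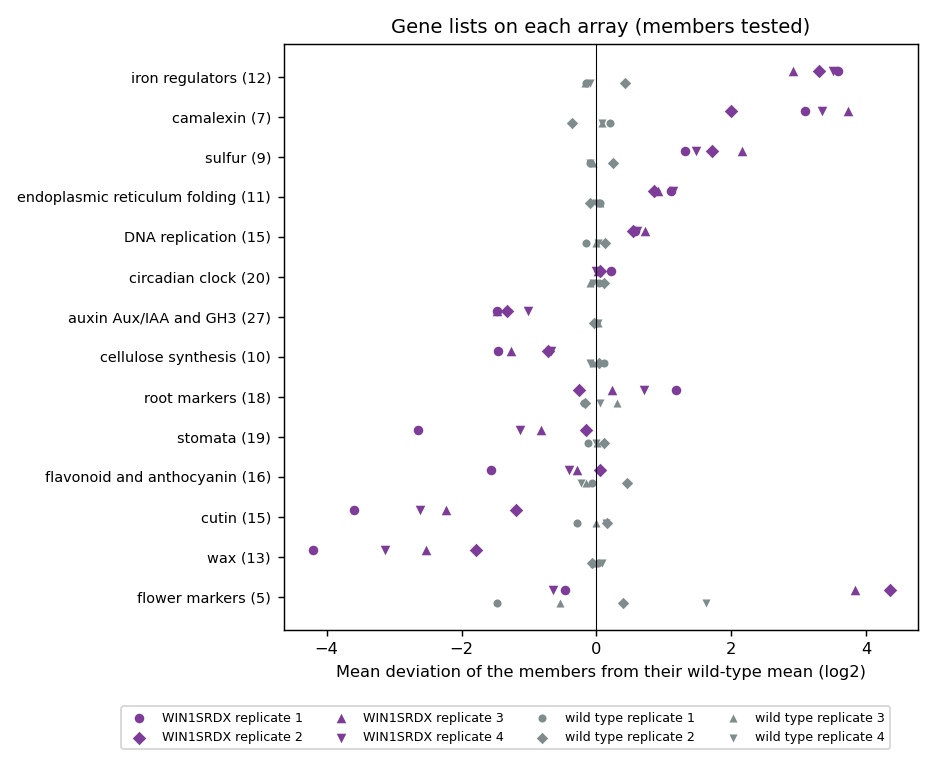
Each symbol is 1 array, placed by the mean log2 deviation of the tested members of a gene list from their wild-type mean (x axis), for WIN1SRDX (purple) and wild type (grey). Iron regulators are high on all 4 WIN1SRDX arrays, at 3.58, 3.31, 2.92 and 3.51, whereas the wax and cutin genes spread widely and the flower markers are high on replicates 2 and 3. Of the 5 flower markers 2 were well above background on all 8 arrays.

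The spread among WIN1SRDX arrays was larger than among wild-type arrays. The median SD over arrays was 0.28 in WIN1SRDX and 0.14 in wild type, and the SD was larger in WIN1SRDX in 81.5% of the genes. The 10 genes with the largest SD in WIN1SRDX were low on replicate 2 alone. UTR2, a nucleotide sugar transporter, stood at 3.15, -5.05, 3.27 and 2.96 on the WIN1SRDX arrays, against 2.67, 2.29, 2.64 and 2.46 on the wild-type arrays. WNK4, a protein kinase, stood at 2.11, -6.05, 1.90 and 1.51 on the WIN1SRDX arrays, against 0.69, 0.82, 0.83 and 0.54 on the wild-type arrays. In both, 1 low array set the sign of the difference, -1.43 ± 1.53 for UTR2 (adjusted p = 0.499) and -0.85 ± 1.48 for WNK4 (adjusted p = 0.685). With the strip of spots left out they became 0.62 (adjusted p = 0.0099) and 1.12 (adjusted p = 0.00197). Among the genes named here as having risen or fallen, FRO2, IRT2, FSD1, CER1, MYB16, TMM, CAB1 and PDF1.2 missed the threshold under some setting or without 1 array, with adjusted p-values of at most 0.113.

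WIN1SRDX was also set directly against MYB106SRDX, where 8625 genes (42.6%) differed, 4908 (24.2%) higher and 3717 (18.3%) lower in WIN1SRDX. Of the 15 DNA replication genes 10 were higher and 0 lower in WIN1SRDX than in MYB106SRDX, and of the 17 mitotic genes 16 and 0. Of the 18 root markers 15 were higher and 1 lower. Of the 12 iron regulators 6 were higher and 2 lower, and of the 27 Aux/IAA and GH3 genes 13 and 3. The MYB106SRDX arrays differed among themselves in the iron regulators, with mean deviations from wild type of -0.35, -1.3, 0.22 and 2.5 on replicates 1 to 4. Against wild type, 4 of these regulators were higher and 1 lower in MYB106SRDX. Set beside wild type, whose arrays both comparisons share, the median of the mitotic genes was 0.47 in WIN1SRDX and -1.92 in MYB106SRDX, and that of the root markers was 0.65 in WIN1SRDX and -4.10 in MYB106SRDX. The median of the camalexin genes was 1.69 in WIN1SRDX and 3.06 in MYB106SRDX. For the endoplasmic reticulum folding genes it was 0.87 in WIN1SRDX and 1.05 in MYB106SRDX, and for the sulfur genes 2.40 in WIN1SRDX and 2.05 in MYB106SRDX.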

How the data were processed

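Labelled RNA of whole seedlings was hybridised to 1-colour Agilent arrays. The deposited scanner files hold the processed signal intensity of each spot, background-corrected by the scanner software (Agilent Feature Extraction 9.1.3.1), per the submitters' processing notes and the file headers. The authors also deposited a value table, a linear ratio with no centring: each value is the processed intensity divided by a constant, 1082.6 for MYB106SRDX, 995.6 (995.7 for replicate 3) for WIN1SRDX and 1264.0 for wild type, and how the constants were chosen is not stated. Its column medians were 0.0977, 0.0867, 0.1366 and 0.1096 for WIN1SRDX, 0.0698, 0.0598, 0.0652 and 0.0758 for MYB106SRDX, and 0.0996, 0.0966, 0.0993 and 0.1088 for wild type. That table was used as an alternative only.

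The deposited intensity was divided by its array's 75th percentile, taken over spots that are not controls, and log2 transformed. Control spots and spots flagged as outliers were left out, and spots of a probe were averaged. Of 37478 probes 26236 named a locus, and 25449 of 25665 loci matched the RefSeq table, which gave 10189 symbols, so that genes without a symbol are counted but not named. For a locus with several probes the one with the highest mean was used. Genes were tested if some group had them well above background on each of its 4 arrays. limma 3.58.1 in R 4.3.3 was fitted to all 12 arrays with group as the only term (9 residual degrees of freedom), and p-values were adjusted over 20268 genes. The fit was also run on simulated data in which each gene had the same spread in all groups. In the real data the spread differed between groups, a case that the simulation does not cover. Where no array of a group had a gene well above background, its fold is a bound. The mean of the bright group is then set against the dim group's mean detection floor, the floor on each array being its weakest detected signal or the probe's own signal where that is larger. The number of arrays limits the precision.

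The comparison, gene lists and families were chosen with earlier results of these data known. Of the list members 9 were left out because their symbol differed and 27 were too dim to test. Families were described where at least 8 members were tested. The largest rises and falls were sought among genes with a symbol that passed and were well above background on all 8 arrays. Their groups also had to be without overlap, so that the lack of overlap in these genes follows from the rule. The lowest p-values and largest SDs were sought among genes with a symbol and well above background on all 8 arrays. The rule for named genes took the construct genes, the 12 largest rises and falls with a symbol, the 6 largest bounds each way, the 10 lowest p-values, the 10 largest SDs in WIN1SRDX, the 4 called members of each list with the lowest p, and the 6 brightest wild-type genes that changed at least 2-fold. A selection of these is named, and FRU, COPT2, CCS, IRT1, IRT2, FRO2, NAS4, bHLH38, the ferritins, FSD1, ATSDI1, CCA1, LHY, RVE8, RVE1, CDF1, PCL1, IAA5, IAA29, PR1, RSL4, WOX5, TMM, CER1, CYCB1;1, LTI78 and ZIF1 were named outside the rule after their values were seen. Alternatives changed the scaling, background correction, filter, outlying spots, probes per gene, samples, array weights, slide, replicate block and arrays left out. Background correction by normexp used the median signals. No sequences were used, so promoters were not described.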

Additional observations from a re-analysis of the deposited data

Results flagged for a closer look

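In groups of 4 arrays, an array was singled out where its gap to the nearest of the others was a larger part of the group's range than Dixon's critical value. This was so in 16 of 304 groups looked at, and chance alone gives about 1 in 20 such groups. Many of the genes looked at were chosen by their values, so the count is not a test against that rate.

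Agilent's software marked 181 spots as outliers on WIN1SRDX replicate 2, far above the other WIN1SRDX arrays. On the same array UTR2 was at -5.05 and WNK4 at -6.05, each far below the other 3, and the evening clock gene PCL1 was at 1.72, below the other 3. UTR2 and WNK4 were named for their large SD in WIN1SRDX, a choice that favours genes with a lone array. WIN1SRDX replicate 1 was alone in a low SHN2, at -6.64, and a low MBP1, at 2.70. IRT1 was lowest on WIN1SRDX replicate 3, at -6.33, and IAA5 was highest on WIN1SRDX replicate 4, at -2.70.

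Among the wild-type arrays, replicate 2 stood alone most often. Its iron regulators averaged 0.42 above the wild-type mean, its sulfur genes 0.24 and its flowering time genes 0.48. OPT3 was high there, at 0.60, and MSRB8 low, at -6.35. On wild-type replicate 1 the salicylic acid genes averaged 0.13 above the wild-type mean and CSD1 was high, at 0.52. TOC1 was low on wild-type replicate 3, at 1.12. The deviations of these wild-type arrays are small beside the differences between WIN1SRDX and wild type in iron regulators, sulfur genes, OPT3, MSRB8, CSD1 and TOC1.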

How the results depend on the processing

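The number of genes that passed between WIN1SRDX and wild type, 6606, was 5987 with the authors' values (66.5% of them higher), 5875 with only genes above background on all 12 arrays, 8290 in a fit of the 8 arrays alone, 8720 with array weights and 5727 with slide as a block. It was 4834 to 6259 with 1 array left out, lowest without wild-type replicate 1. No gene that passed both as reported and under an alternative had opposite signs. Against MYB106SRDX the count was 7664 to 8623 with 1 array left out.

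Same-numbered arrays are not a pair by the labels, and their deviations from the group means correlated at 0.078, 0.196, -0.036 and -0.07 for WIN1SRDX and wild type, and at -0.165 to -0.012 for WIN1SRDX and MYB106SRDX, so that the numbers do not pair the samples. With the replicate block 5860 genes passed against wild type and 8013 against MYB106SRDX.

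Of 66 counts of list members of 3 or more, in either direction, 31 moved by more than 1.5 times under at least 1 alternative, 16 of them when 1 array was left out. The cause was not tested except where fewer genes or samples enter. Over all genes the fit of the 8 arrays alone called 4367 higher and 3923 lower, more than the 3528 and 3078 reported. Each fit without 1 array called fewer than these in both directions. The larger counts that moved were these. With only genes above background on all 12 arrays, 5 iron regulators, 3 camalexin genes and 2 root markers were higher and 10 MYB factors lower. In the fit of the 8 arrays alone 12 phenylpropanoid genes and 8 cysteine-rich receptor-like kinases were higher. With array weights 35 MYB factors were lower and 8 of these kinases higher. With the authors' values 7 clock genes and 5 ribosomal protein genes were lower, and with slide as a block 5 ribosomal protein genes. Of smaller or opposite counts, 5 output genes of jasmonate and ethylene defence were higher and 5 WRKY factors lower without WIN1SRDX replicate 2, and the fit of the 8 arrays alone gave 7 stomatal, 4 trichome, 8 SAUR, 8 photosystem, 5 JAZ and 7 abscisic acid genes lower and 5 mitotic genes higher. With 1 array left out, 1 to 5 stomatal genes, 1 to 5 root markers, 1 to 4 photosystem genes, 4 to 7 NAC factors and 5 to 9 WRKY factors were lower, and 0 to 1 Aux/IAA and GH3 genes higher. With 1 array left out, 3 to 5 camalexin genes were higher, and 7 to 11 Aux/IAA and GH3 genes, 7 to 11 clock genes, 7 to 10 wax genes and 12 to 22 MYB factors were lower.

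Of 104 genes named, 13 of the 97 that passed lost the call under at least 1 setting. The direction turned in UTR2, to 0.62 with the strip of spots left out, and in WNK4, to 1.12, settings that leave out the low spots. With 1 array left out UTR2 was at -2.16 to 0.62, and WNK4 at -1.60 to 1.12, both highest without WIN1SRDX replicate 2. Dim genes have bounds and no fold.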

Other observations

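Of 21 genes of abscisic acid and drought 2 rose and 3 fell (median -0.62), or 7 fell in the fit of the 8 arrays alone. The shares of these genes that rose and fell were no larger than those over all genes tested, 17.4% and 15.2%. RD22, a drought-induced protein of the wall, differed by -4.12 ± 0.87 and LTI78, a marker of cold and drought, by -3.04 ± 0.92 (adjusted p = 0.00505 and 0.0267). CYP707A1, which breaks abscisic acid down, stood at 0.53, -0.41, 0.13 and 0.84 on the WIN1SRDX arrays, against -2.06, -2.41, -1.76 and -2.02 on the wild-type arrays. It was high on every WIN1SRDX array and rose by 2.34 ± 0.27 (adjusted p = 0.0002). Of 9 type-A response regulators of cytokinin 0 rose and 3 fell (median -1.09), ARR7 by -2.37 ± 0.58 (adjusted p = 0.0103). Of 16 flavonoid and anthocyanin genes 1 rose and 2 fell, 18.8% in all against 32.6% over all genes tested. MYB111, an activator of flavonol synthesis, differed by -3.18 ± 0.92 (adjusted p = 0.0223) and was above background on 2 of the 4 WIN1SRDX arrays.

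Genes of other nutrients were also read. Of 10 phosphate starvation genes 2 rose and 0 fell (median 0.13). The share that rose was near the 17.4% over all genes tested. PS2, a phosphatase, rose by 2.87 ± 0.65 (adjusted p = 0.00694). Of 5 nitrate genes 0 rose and 2 fell, 40.0% in all against 32.6% over all genes tested, or 0 fell with the authors' values. The transporter NRT1.1 differed by -1.18 ± 0.36 (adjusted p = 0.029). COPT2, a copper uptake transporter, stood at -0.16, -0.06, -0.32 and -0.18 on the WIN1SRDX arrays, against 0.80, 0.68, 0.84 and 0.83 on the wild-type arrays. It differed by -0.97 ± 0.16 (adjusted p = 0.00124), and CCS, the chaperone that loads copper into superoxide dismutases, by 0.71 ± 0.21 (adjusted p = 0.0265). The calls of LTI78, MYB111, NRT1.1 and CCS were lost under some setting or without 1 array, with adjusted p-values of at most 0.0811.

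Large families of regulators held genes of both directions. Among 58 WRKY factors 10 rose and 10 fell, and among 63 NAC factors 11 rose and 7 fell, shares near or below those over all genes tested. Without WIN1SRDX replicate 2, 14 WRKY factors rose and 5 fell, and 5 or 6 fell without WIN1SRDX replicate 3 or wild-type replicate 1, 3 or 4. The number of NAC factors that fell was 4 without WIN1SRDX replicate 1 or wild-type replicate 1 or 4. Among 89 MYB factors 17 rose and 20 fell, or 12 fell without wild-type replicate 3 or 4. The share that rose was near the 17.4% over all genes tested, and the share that fell was above the 15.2%. Without wild-type replicate 3 or 4, 2384 and 2355 of all genes fell, against 3078 as reported. Of 19 ERF factors 2 rose and 7 fell (median -0.71), 47.4% in all against 32.6% over all genes tested. Of 41 receptor-like proteins 12 rose and 3 fell, 36.6% in all against the same 32.6%, or 8 fell in the fit of the 8 arrays alone.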
